A study of Homo sapiens with 9 samples.

Results

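Semaphorins, plexins and neuropilins are the ligands and receptors of one guidance pathway, and their RNA was followed in PC9 cells before and after 28 days of osimertinib. Genes named SEMA of classes 3 to 7, plexins of types A to D and the neuropilins NRP1 and NRP2 were taken by symbol, and where several transcripts of a gene were listed (141 rows in all) the one with the highest mean over the 9 libraries was kept. This gave 31 of the 20442 genes, made up of 20 semaphorins, 9 plexins and 2 neuropilins. The row of each gene was thus chosen by its mean level, on the log2 scale, which ran from 1.57 for SEMA6D to 15.1 for PLXNB2. Of the 31 genes, 22 were abundant enough to test.

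Semaphorins are secreted or membrane-bound proteins first described as repellents of growing axons, and they also act on epithelia, vessels and tumours. Most bind plexins directly, whereas most secreted class 3 semaphorins bind a neuropilin that forms a complex with a type A plexin. Activated plexins switch off Ras-family and Rap GTPases through their cytoplasmic domain, which changes adhesion and the actin cytoskeleton.

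PC9 is a human lung adenocarcinoma line with an activating EGFR mutation, and osimertinib is an EGFR kinase inhibitor. The cells carried the FUCCI4 reporter, which includes fluorescent fusions of CDT1 and GMNN that mark cell cycle phase. The cells were fixed in glyoxal, permeabilised and sorted into G1, S and G2 by DAPI and reporter signal. Day 28 cells, kept in 500 nM osimertinib for 28 days, gave 4 libraries of poly(A) RNA: G1 of clone 1, G1 of clone 7, S of clone 1 and G2 of clone 1. Day 0 cells, labelled untreated, gave 5 libraries: G1 and S of clones 1 and 7, and G2 of clone 1. All libraries come from 2 reporter clones of 1 line, and the labels do not say whether they came from separate cultures, so p-values measure the spread between these libraries. In sorted bulk RNA, fewer cells with a transcript and less transcript per cell cannot be told apart.

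Reads recovered from the file numbered 30.5 to 43.1 M (M for mega) in day 28 libraries and 8.83 to 108.7 M in day 0 libraries. Reads were counted over the coding span, from start to stop codon with the introns, so unspliced RNA enters each value. Genes with spans over 300 kb took 2.06 to 3.41% of reads at day 28 and 0.726 to 1.05% at day 0. Summed over 398 olfactory receptor genes, which a lung line should not express, 0.00875 to 0.0239 reads per kb per M reads were found at day 28 and 0.00123 to 0.00479 at day 0. The part of either in the values of the guidance genes was not tested, beyond the fits named beside the results. Epithelial markers (EPCAM, KRT8, KRT18, KRT19, CDH1, CLDN4) were detected in every library and summed to 1651 to 2699 reads per kb per M at day 28 and 2110 to 3720 at day 0. The sums of 5 leukocyte, 4 fibroblast, 4 endothelial and 4 neuron markers stayed at or below 6.86 in every library. The leukocyte sum, mostly CD68, was 0.171 to 1.53 at day 28 and 2.52 to 6.86 at day 0, and the neuron sum, nearly all of it TUBB3, was 2.89 to 5.77 at day 28 and 2.67 to 4.70 at day 0.

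Levels per library are given below as log2(scaled reads + 1), and fold changes are on that log2 scale with their standard error (SE). The adjusted p is from limma across 12391 genes with day and phase as terms and Benjamini-Hochberg adjustment, called at 0.05. At day 28, 12 of the 22 tested genes rose, 3 fell and 7 did not pass the test, whereas 28.6% of all tested genes were called higher and 26.6% lower. The median change was 1.00 over the 22 genes and 0.01 over all genes. SEMA3A, PLXNB3 and SEMA6C passed the abundance filter only through their day 28 values, and of the 19 genes above it on both days 9 rose and 3 fell. The share called among all genes above it on both days was not counted, so these 2 counts have no matched background. All 12 rises and all 3 falls had one direction in each of the 4 pairs of libraries matched for phase and clone. The calls came from these same libraries, so this is a description and not separate support. The smallest such difference, SEMA3E in G1 of clone 7, was 0.008. With limma-voom on the recovered reads, which moved the median of all genes by 0.26, to 0.28, 4599 genes were called higher and 2236 lower, against 3538 and 3291 here, and 13 guidance genes were higher and 2 lower.

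**Figure D1:**
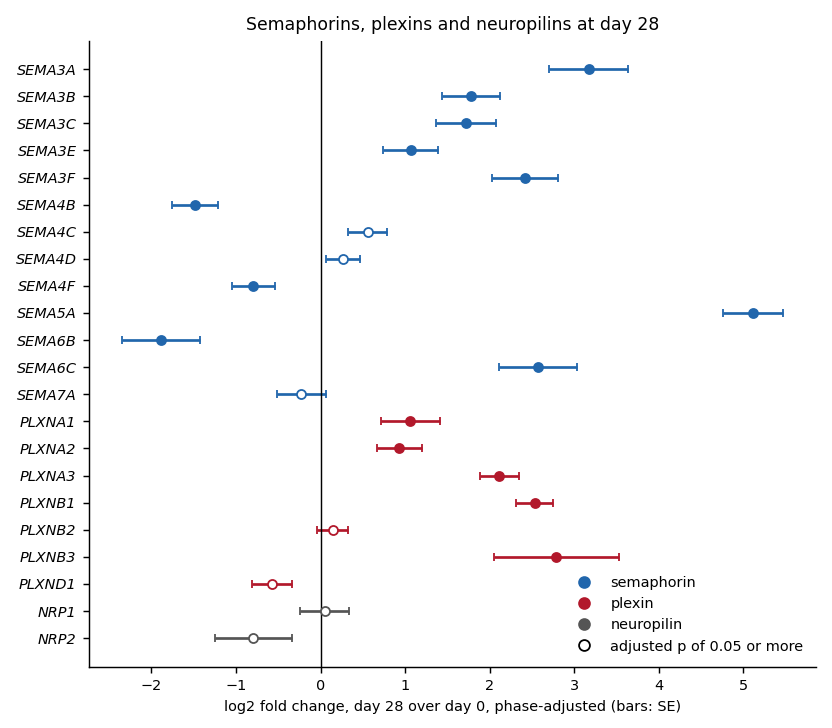
Change at day 28 against day 0 for the 22 tested genes, as phase-adjusted log2 fold change (points) with its SE (bars). Filled points passed the test at an adjusted p under 0.05; SEMA5A stands highest at 5.12 and SEMA6B lowest at -1.88.

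Promoters of 5 genes that passed the test are printed because these genes carry the main results: 4 that rose (SEMA5A, PLXNB1, PLXNA3, SEMA3C) and 1 that fell (SEMA4B). PLXNB1 and SEMA3C have 2 RefSeq start sites and SEMA4B has 3, and for these the window nearest the coding span is printed. Each runs from 250 bases before to 50 bases after a RefSeq start site on GRCh38.p14, in the gene's own direction, and capitals mark matches to a search on both strands for 7 motifs.
SEMA5A: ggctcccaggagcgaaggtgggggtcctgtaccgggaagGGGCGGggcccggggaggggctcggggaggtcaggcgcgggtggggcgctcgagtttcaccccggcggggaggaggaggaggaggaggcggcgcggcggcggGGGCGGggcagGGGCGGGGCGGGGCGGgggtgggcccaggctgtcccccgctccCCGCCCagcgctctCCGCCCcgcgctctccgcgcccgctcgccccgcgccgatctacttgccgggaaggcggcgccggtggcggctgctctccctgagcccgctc
PLXNB1: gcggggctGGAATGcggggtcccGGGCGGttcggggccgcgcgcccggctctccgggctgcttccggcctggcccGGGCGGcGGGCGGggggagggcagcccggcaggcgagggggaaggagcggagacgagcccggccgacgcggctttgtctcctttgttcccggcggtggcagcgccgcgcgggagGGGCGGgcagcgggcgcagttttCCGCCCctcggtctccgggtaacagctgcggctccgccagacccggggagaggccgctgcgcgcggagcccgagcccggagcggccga
PLXNA3: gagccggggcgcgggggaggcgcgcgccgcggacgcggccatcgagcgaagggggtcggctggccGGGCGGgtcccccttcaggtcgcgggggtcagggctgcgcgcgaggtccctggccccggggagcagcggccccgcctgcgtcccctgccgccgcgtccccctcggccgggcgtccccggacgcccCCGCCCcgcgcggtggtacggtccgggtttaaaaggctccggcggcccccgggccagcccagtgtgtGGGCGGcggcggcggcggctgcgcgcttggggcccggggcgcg
SEMA3C: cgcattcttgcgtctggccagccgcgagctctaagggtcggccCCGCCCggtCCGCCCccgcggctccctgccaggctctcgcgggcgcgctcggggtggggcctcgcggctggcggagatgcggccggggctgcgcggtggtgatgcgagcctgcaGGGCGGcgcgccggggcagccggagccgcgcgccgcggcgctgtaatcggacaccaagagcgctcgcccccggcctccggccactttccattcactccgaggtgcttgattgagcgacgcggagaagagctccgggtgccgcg
SEMA4B: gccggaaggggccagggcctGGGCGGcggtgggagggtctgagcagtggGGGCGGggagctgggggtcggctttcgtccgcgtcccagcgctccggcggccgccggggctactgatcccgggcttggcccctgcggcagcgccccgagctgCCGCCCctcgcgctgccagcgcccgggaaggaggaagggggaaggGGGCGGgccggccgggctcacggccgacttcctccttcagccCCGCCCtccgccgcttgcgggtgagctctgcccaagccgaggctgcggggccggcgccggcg

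These windows lie at chr5:9546026-9546325 on the minus strand for SEMA5A, chr3:48429295-48429594 on the minus strand for PLXNB1 and chrX:154458031-154458330 on the plus strand for PLXNA3. The SEMA3C window is chr7:80919002-80919301 on the minus strand, and the SEMA4B window is chr15:90201080-90201379 on the plus strand. The search for Sp1 used the letters GGGCGG, that for AP-1 used TGANTCA and that for TEAD used GGAATG. The letters for FOXO were GTAAACA, those for the E-box were CACGTG and those for the TATA box were TATAAA, while CRE was searched as TGACGTCA. Overlapping matches of one motif were counted separately. Sp1 letters matched 7 times in SEMA5A, 5 times in PLXNB1, 3 times in PLXNA3, 3 times in SEMA3C and 5 times in SEMA4B, and 45.0% of 35116 RefSeq promoter windows of this length held them at least once. PLXNB1 had 1 TEAD match, a motif found in 14% of all windows. None of the 5 printed windows held the letters of the other 5 motifs. GC content was 75.7 to 83.3% in the printed windows, against a median of 58.7% over all windows. The windows at the other start sites differed from those printed. That of PLXNB1 had 62.3% GC, 2 Sp1 matches and no TEAD match, and that of SEMA3C had 36% GC and no match. Of the other windows of SEMA4B, 1 had 72.3% GC, 3 Sp1 matches and 1 FOXO match, a motif found in 3.42% of all windows, and 1 had 55% GC and no match.

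Among the secreted class 3 semaphorins, 5 of 7 were tested and all 5 rose, with a median change of 1.77. Of all tested genes, 28.6% were called higher. The 5 include SEMA3A, which passed the abundance filter only through its day 28 values. SEMA3A, the founding repellent of this class, lies at chr7:83961371-84194586 and was at 9.25 and 9.15 in day 28 G1 cells, 8.71 in S and 9.25 in G2. At day 0 it was at 5.00 and 6.29 in G1, 5.84 and 5.83 in S and 6.46 in G2. The lowest day 28 library stood above the highest day 0 library, and the change was 3.17 ± 0.47 (adjusted p = 2.89e-04). Counts were low, with 189 to 295 reads a library at day 28 and 6 to 35 at day 0. Per length SEMA3A was near the olfactory receptor level on both days. It was at 0.0198 to 0.0312 reads per kb per M at day 28, against 0.00875 to 0.0239 for the olfactory receptor genes. At day 0 it was at 0.00138 to 0.00330, against 0.00123 to 0.00479.

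SEMA3F, a secreted ligand that acts through NRP2, lies at chr3:50159623-50188115 and was at 11.52 and 11.11 in day 28 G1 cells, 11.12 in S and 12.06 in G2. At day 0 it was at 9.89 and 8.08 in G1, 9.62 and 8.85 in S and 8.74 in G2, and the days did not overlap. It rose by 2.42 ± 0.39 (adjusted p = 4.77e-04). SEMA3B, its neighbour on chromosome 3 (chr3:50269241-50276706) and like it known as a candidate tumour suppressor, was at 13.36 and 13.40 in day 28 G1 cells, 12.08 in S and 11.82 in G2. The day 0 values of SEMA3B were 10.96 and 12.12 in G1, 10.79 and 11.64 in S and 8.97 in G2. The days overlapped, since the G1 library of clone 7 at day 0 stood above the S and G2 libraries at day 28, and the change was 1.77 ± 0.34 (adjusted p = 0.00137).

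SEMA3C, which binds both neuropilins, lies at chr7:80744894-80916781 and was at 13.17 and 13.71 in day 28 G1 cells, against 10.47 and 10.93 in day 0 G1 cells. In S it was at 11.03 at day 28, against 10.25 and 10.09 at day 0, and in G2 at 10.37 at day 28, against 9.55 at day 0. Each phase was higher at day 28, but the day 28 G2 library stood below both day 0 G1 libraries. The change across phases was 1.72 ± 0.35 (adjusted p = 0.00192). SEMA3E, which binds PLXND1 without a neuropilin, lies at chr7:83367586-83648542 and was at 10.19 and 9.42 in day 28 G1 cells, 9.99 in S and 10.02 in G2. At day 0 SEMA3E was at 8.87 and 9.42 in G1, 8.87 and 8.15 in S and 8.71 in G2. The G1 libraries of clone 7 were alike on both days, and the change was 1.06 ± 0.32 (adjusted p = 0.0161). The SEMA3E call was lost without any 1 of 4 libraries (day 28 G1 of clone 1, day 28 S, day 28 G2 or day 0 G2; lowest change 0.88, adjusted p = 0.0942), with quantile scaling (0.64, adjusted p = 0.0987) and with the background subtracted (0.74, adjusted p = 0.106). It turned to -0.17 (adjusted p = 0.656) once the trend of change with span length was removed.

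**Figure D2:**
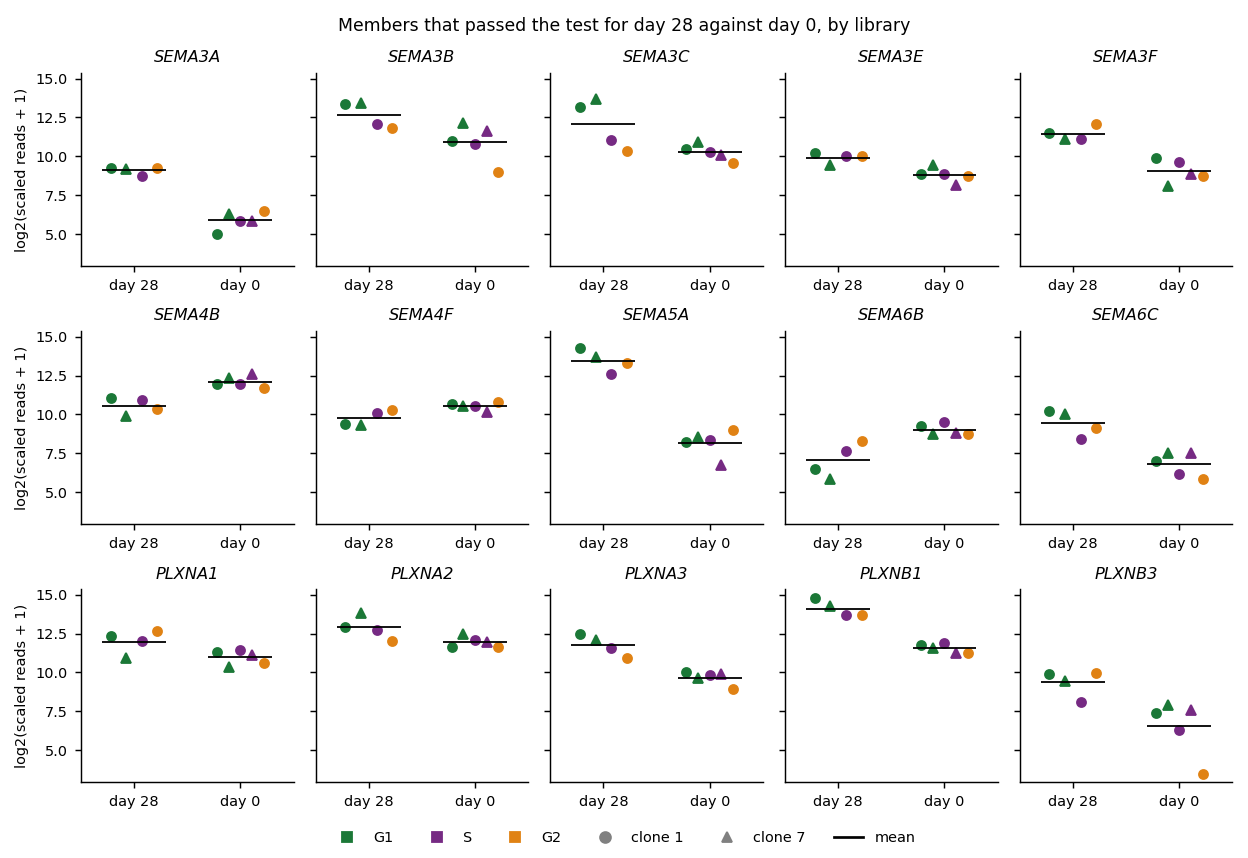
Level of the 15 genes that passed the test, as log2(scaled reads + 1), in the 4 libraries of day 28 and the 5 of day 0. Colour gives phase, shape gives clone and the line is the mean; in SEMA5A all day 28 libraries (12.61 to 14.24) lie above all day 0 libraries (6.73 to 9.0).

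SEMA5A, a membrane semaphorin with thrombospondin repeats and the only class 5 gene tested, had the largest change of the 22 genes and the 13th largest rise of all 12391. Its span, chr5:9042897-9379946 on the minus strand, covers 337.1 kb. SEMA5A was at 14.24 and 13.67 in day 28 G1 cells, 12.61 in S and 13.29 in G2, against 8.21 and 8.55 in day 0 G1 cells, 8.37 and 6.73 in S and 9.0 in G2. The days were far apart in every phase, and the change was 5.12 ± 0.36 (adjusted p = 1.32e-05), or 34.7-fold. Per length it averaged 0.423 ± 0.206 reads per kb per M at day 28 (SD, n = 4) and 0.00911 ± 0.00383 at day 0 (SD, n = 5). Spans over 300 kb tended to be higher at day 28, with 80.9% of the 434 such genes called higher and a median change of 2.01, and SEMA5A was above that median. The lowest value of SEMA5A over all alternative fits was 3.73.

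The class 6 membrane semaphorins split. SEMA6C, at chr1:151132484-151142621, was at 10.22 and 10.03 in day 28 G1 cells, 8.39 in S and 9.15 in G2, against 6.98 and 7.50 in day 0 G1 cells, 6.16 and 7.51 in S and 5.84 in G2. SEMA6C rose by 2.57 ± 0.46 (adjusted p = 8.39e-04) without overlap. SEMA6B, at chr19:4542914-4558457, was at 6.47 and 5.85 in day 28 G1 cells, 7.64 in S and 8.26 in G2, against 9.24 and 8.73 in day 0 G1 cells, 9.50 and 8.83 in S and 8.74 in G2. SEMA6B fell by 1.88 on the log2 scale (SE 0.46, adjusted p = 0.00524), and every day 28 library lay below every day 0 library, with 23 to 148 reads at day 28 and 33 to 681 at day 0.

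Of the class 4 membrane semaphorins, 4 of 6 were tested, 2 fell and 2 did not pass the test. Of all tested genes, 26.6% were called lower. SEMA4B was at 11.09 and 9.92 in day 28 G1 cells, 10.91 in S and 10.32 in G2, against 11.93 and 12.36 in day 0 G1 cells, 11.93 and 12.60 in S and 11.68 in G2. The days did not overlap, and SEMA4B fell by 1.49 on the log2 scale (SE 0.27, adjusted p = 9.56e-04). The row kept for SEMA4B covers 7.60 kb, chr15:90221750-90229347, and is not its widest span. SEMA4F fell by 0.80 on the log2 scale (SE 0.26, adjusted p = 0.0204), with 9.30 to 10.27 at day 28 and 10.18 to 10.82 at day 0. That call was lost without the day 28 G1 library of clone 1 (-0.73), without the day 0 G1 library of clone 1 (-0.68, adjusted p = 0.0583), under limma-voom (-0.54, adjusted p = 0.103), on narrower spans (-0.64, adjusted p = 0.198) and with the trend with span length removed (-0.64, adjusted p = 0.0553). SEMA4C, the ligand of PLXNB2, differed by 0.56 ± 0.23 (adjusted p = 0.0562). SEMA4C was called higher under limma-voom (0.81, adjusted p = 0.0124), with the span trend removed (0.91, adjusted p = 0.00685), in clone 1 alone (0.74, adjusted p = 0.0158) and without the day 28 G1 library of clone 7 (0.75, adjusted p = 0.0100). SEMA4D, the ligand of PLXNB1, differed by 0.26 ± 0.20 (adjusted p = 0.291). SEMA7A, the lipid-anchored class 7 member, was at 8.49 to 10.04 at day 28 and 9.17 to 10.26 at day 0 (-0.23 ± 0.29, adjusted p = 0.521).

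Among the receptors, 5 of 7 tested plexins rose and none fell, where 28.6% of all tested genes were called higher and 26.6% lower. The 5 include PLXNB3, which passed the abundance filter only through its day 28 values. PLXNB1, the SEMA4D receptor that can associate with the receptor kinases MET and ERBB2, lies at chr3:48404486-48424611. PLXNB1 was at 14.78 and 14.31 in day 28 G1 cells, 13.68 in S and 13.67 in G2, against 11.75 and 11.57 in day 0 G1 cells, 11.91 and 11.24 in S and 11.27 in G2. Every day 28 library stood above every day 0 library, and PLXNB1 rose by 2.53 ± 0.22 (adjusted p = 2.19e-05), or 5.77-fold. Per length it averaged 10.8 ± 4.55 reads per kb per M at day 28 (SD, n = 4) and 1.47 ± 0.407 at day 0 (SD, n = 5). PLXNB2, the most abundant of the 31 genes per length, averaged 30.6 ± 8.38 at day 28 and 23.0 ± 5.82 at day 0, and its log2 difference was 0.14 ± 0.18 (adjusted p = 0.534), or 0.69 (adjusted p = 0.0151) with quantile scaling.

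PLXNB3, a type B plexin at chrX:153765536-153779039, was at 9.89 and 9.46 in day 28 G1 cells, 8.12 in S and 9.96 in G2. At day 0 PLXNB3 was at 7.37 and 7.94 in G1, 6.32 and 7.57 in S and 3.49 in G2. The days did not overlap and the change was 2.79 ± 0.74 (adjusted p = 0.00797), but the day 0 G2 value came from 4 reads and lay far below the rest. PLXNB3 kept its call in every alternative, with changes of 1.68 to 3.60.

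All 3 tested type A plexins, the signalling partners of neuropilins, rose, where 28.6% of all tested genes were called higher. PLXNA3, at chrX:154460184-154472685, was at 12.48 and 12.12 in day 28 G1 cells, 11.56 in S and 10.94 in G2, against 10.05 and 9.67 in day 0 G1 cells, 9.84 and 9.88 in S and 8.95 in G2. It rose by 2.11 ± 0.23 (adjusted p = 6.35e-05) without overlap between the days. PLXNA1, at chr3:126988594-127034017, was at 12.33 and 10.92 in day 28 G1 cells, 12.05 in S and 12.65 in G2, against 11.34 and 10.37 in day 0 G1 cells, 11.46 and 11.13 in S and 10.59 in G2. The G1 library of clone 7 was the lowest on both days and the days overlapped. PLXNA1 rose by 1.06 ± 0.34 (adjusted p = 0.0215). The call was lost without the day 28 G1 library of clone 1 (0.86, adjusted p = 0.0806), without the day 28 G2 library (0.76, adjusted p = 0.112) or without the day 0 G2 library (0.76, adjusted p = 0.111). PLXNA2 rose by 0.93 ± 0.27 (adjusted p = 0.0122), with 12.03 to 13.85 at day 28 and 11.64 to 12.48 at day 0. Its change was 0.01 (adjusted p = 0.981) once the trend with span length was removed. PLXND1, the SEMA3E receptor, differed by -0.57 ± 0.24 (adjusted p = 0.0572). It was called lower with clone as a block (-0.61, adjusted p = 0.0384), with median-of-ratios scaling (-0.61, adjusted p = 0.0439), with quantile scaling (-0.77, adjusted p = 0.0189), with the background subtracted (-0.61, adjusted p = 0.0484) and without the G2 library of either day (-0.76, highest adjusted p = 0.0302).

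Neither neuropilin passed the test. NRP1, co-receptor of SEMA3A and of VEGF, was at 12.25 and 10.90 in day 28 G1 cells, 11.36 in S and 11.44 in G2, against 11.05 and 11.95 in day 0 G1 cells, 11.33 and 11.37 in S and 11.39 in G2. The clones went opposite ways in G1, and the change was 0.05 ± 0.29 (adjusted p = 0.902). NRP2, co-receptor of SEMA3F, was at 10.65 and 11.62 in day 28 G1 cells, 9.30 in S and 9.94 in G2, against 10.55 and 12.39 in day 0 G1 cells, 10.50 and 11.86 in S and 10.21 in G2. Its clone 7 libraries were the highest on each day, and the change was -0.79 ± 0.46 (adjusted p = 0.159). The sign of NRP1 turned under 6 alternatives, and with the trend with span length removed it was -0.71 (adjusted p = 0.0437). Under that same fit NRP2 was at -1.33 (adjusted p = 0.0251), and without the day 0 G1 library of clone 1 at -1.21 (adjusted p = 0.0267).

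Summed per length, the 20 semaphorins reached 19.3 to 35.2 reads per kb per M at day 28 and 9.23 to 17.3 at day 0, and the 9 plexins 34.7 to 62.8 at day 28 and 17 to 33.7 at day 0. Per M of recovered reads, neither sum overlapped between the days. The tests and log2 levels used the deposited scaling, which differs between libraries from reads per M, and the sums were not compared on it. The 2 neuropilins summed to 0.250 to 0.550 at day 28 and 0.248 to 0.648 at day 0. Per length, SEMA3B (11.6 ± 6.54 at day 28 and 3.02 ± 1.75 at day 0) and SEMA4C (7.52 ± 1.94 at day 28 and 4.11 ± 0.739 at day 0) were the most abundant semaphorins over all libraries, followed by SEMA4B (2.41 ± 0.857 at day 28 and 5.66 ± 1.4 at day 0; SD, n = 4 and 5). Over the 22 tested genes, 8 (36.4%) had every day 28 library above every day 0 library and 2 (9.09%) had every one below, where 20.9% and 18.9% of all tested genes did. SEMA3A, PLXNB3 and SEMA6C are among the 8. Of the 19 guidance genes above the filter on both days, 5 (26.3%) were above and 2 (10.5%) below. Of all 11815 genes above it on both days, 19.4% and 19.2% were. SEMA3E counts among the 8 and the 5, with its lowest day 28 value (9.425) just above its highest at day 0 (9.417).

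**Figure D3:**
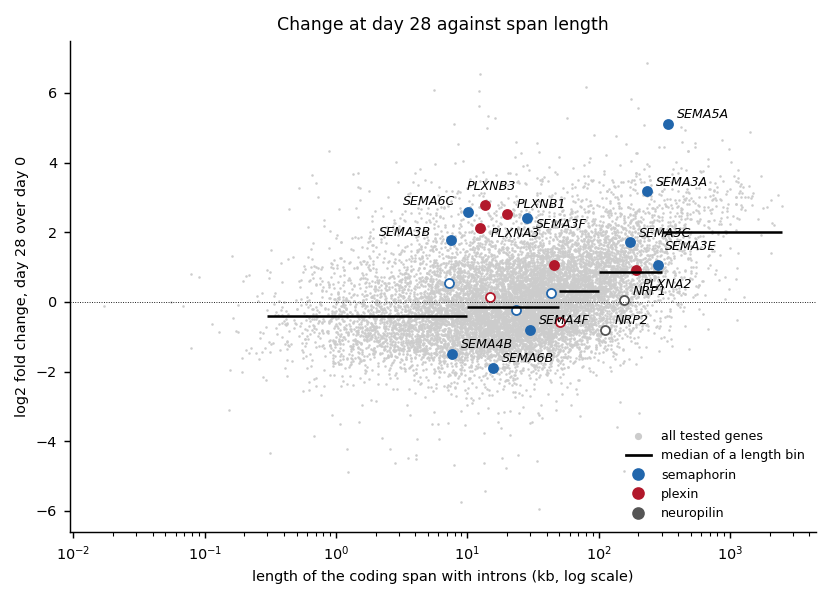
Change at day 28 against the length of the coding span (kb, log scale) for all 12391 tested genes (grey) and the 22 guidance genes (colour; filled where the adjusted p was under 0.05). Bars give the median of a length bin, which goes from -0.42 up to 10 kb to 2.01 over 300 kb.

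The rises were not spread evenly over span length in the whole table, so the guidance genes were read against genes of like span. From 10 to 50 kb, 6 of 11 guidance genes rose and 2 fell, with a median change of 1.06, whereas 21.3% of all 5294 genes of that length were called higher and 30.3% lower, with a median of -0.15. From 100 to 300 kb, 4 of 6 rose and none fell (median 1.00). This was near the values of all 1552 genes of that length, with 56.2% called higher and 8.76% lower (median 0.84). Up to 10 kb, 1 of 3 guidance genes rose and 1 fell, where 15.8% of 3272 genes were called higher and 37.9% lower. The rises from 10 to 50 kb were those of PLXNB1, PLXNB3, PLXNA3, PLXNA1, SEMA6C and SEMA3F. Those from 100 to 300 kb were of SEMA3A, SEMA3C, SEMA3E and PLXNA2. Of these, PLXNB3, SEMA6C and SEMA3A passed the abundance filter only through their day 28 values, which favours a rise, and the counts and medians include them. With the trend with span length removed, 11 guidance genes were called higher and 4 lower, whereas 25.6% of all genes were called higher and 22.2% lower. They were not all the same genes, since PLXNA2, SEMA3E and SEMA4F lost their calls and SEMA4C (higher), NRP1 and NRP2 (both lower) gained one.

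Spans nested within one gene let its reads be split along the gene, described here without a test. Some genes could be split at several points, and the split given first was picked after the values were seen. In SEMA5A the 177.8 kb at the 5 prime end were higher at day 28 by 5.77 on the log2 scale and the 159.2 kb at the 3 prime end by 4.85, and both parts were separate between the days. In SEMA3C the 106.1 kb at the 5 prime end were higher by 2.81 and the 65.8 kb at the 3 prime end by 0.74. Without the day 28 G1 library of clone 1 or of clone 7 these were 2.48 or 2.24 at the 5 prime end and 0.28 or 0.24 at the 3 prime end. The 5 prime part of SEMA3C held 71.5% of its reads at day 28 and 29.1% at day 0. That part is 0.907% exonic by GENCODE v29 and the 3 prime part 3.29%. SEMA3C can also be split nearer its 5 prime end. There, with each day 28 library left out in turn, the 5 prime part was higher by 2.15 to 3.17 and the 3 prime part by 0.98 to 2.16.

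In SEMA3E the 276.3 kb at the 5 prime end (0.825% exonic) were higher at day 28 by 1.34, whereas the 4.68 kb at the 3 prime end (26.2% exonic) differed by -1.22. The day 28 G2 library had no reads over that last part and is entered at 1.52, and without it the day 28 libraries averaged 6.69, against 6.62 at day 0, a difference of 0.07. At a split of SEMA3E nearer its 5 prime end, both parts were higher at day 28. With each day 28 library left out in turn, these differences were 2.49 to 2.83 (5 prime) and 0.77 to 1.01 (3 prime). In NRP1 the difference was 0.26 over the 148.7 kb at the 5 prime end and -1.44 over the 5.58 kb at the 3 prime end. That 3 prime part of NRP1 was separate between the days, at 7.09 to 8.34 at day 28 and 8.68 to 9.27 at day 0. The other splits of NRP1 lie nearer its 5 prime end and gave smaller 3 prime differences. Of these, only the split nearest the 3 prime end had a 3 prime part separate between the days. It was at 8.04 to 9.27 at day 28 and 9.47 to 10.06 at day 0. At the rest of these splits the days overlapped in the 3 prime part. For the split farthest to the 5 prime end, each day 28 library was left out in turn. The differences there were 0.77 to 1.27 (5 prime) and -0.46 to -0.03 (3 prime). In PLXNB1 both parts were higher at day 28 (2.30 over 5.31 kb at the 5 prime end and 2.57 over 14.8 kb at the 3 prime end), and in SEMA3F likewise (2.23 over 14.3 kb and 2.40 over 14.2 kb).

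**Figure D4:**
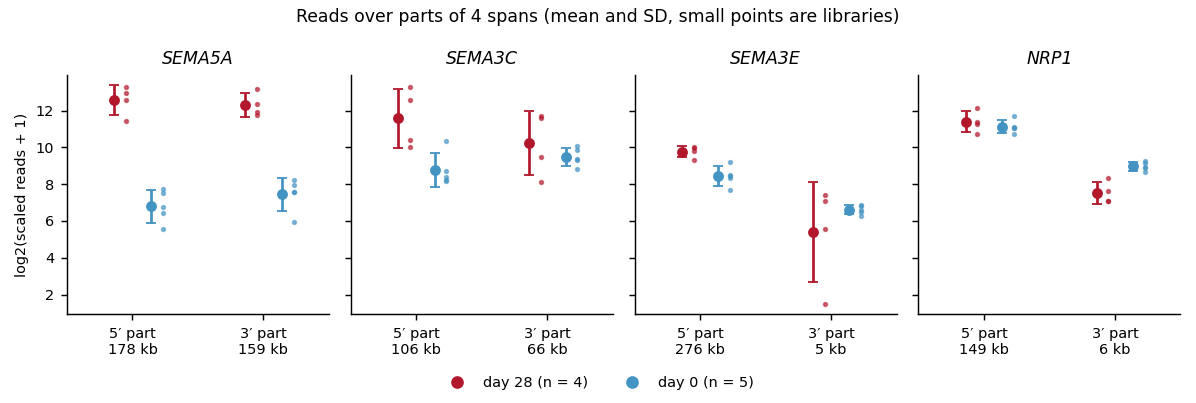
Reads over the 5 prime and 3 prime part of the spans of SEMA5A, SEMA3C, SEMA3E and NRP1, as log2(scaled reads + 1), mean with SD over 4 day 28 and 5 day 0 libraries, with each library as a small point. For each gene 1 split is shown. The 3 prime part of NRP1 lies lower in every day 28 library, that of SEMA3E has 1 day 28 library without reads (1.52), and both parts of SEMA5A lie higher.

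Within G1, where each day has both clones, 10 of the 22 genes rose and 4 fell, whereas 19.8% of all tested genes were called higher and 19.1% lower. The largest rises were those of SEMA5A (5.57 ± 0.54, adjusted p = 0.00234), SEMA3A (3.56 ± 0.65, adjusted p = 0.00697), SEMA6C and PLXNB1 (both 2.88) and SEMA3C (2.74 ± 0.32, adjusted p = 0.00255). SEMA3B, SEMA3F, PLXNA2, PLXNA3 and PLXNB3 also rose, by 1.34 to 2.44. The 10 include SEMA3A, SEMA6C and PLXNB3, which passed the abundance filter only through their day 28 values. SEMA6B (-2.83 ± 0.53, adjusted p = 0.00740), SEMA4B (-1.64 ± 0.44, adjusted p = 0.0231), SEMA4F (-1.26 ± 0.32, adjusted p = 0.0182) and PLXND1 (-1.0 ± 0.29, adjusted p = 0.0308) fell. Without the day 28 G1 library of clone 1, 6 genes rose and 3 fell (8.85% and 11.4% of all genes), and without that of clone 7, 5 rose and 1 fell (11.1% and 13.7% of all genes). Without the day 0 G1 library of clone 1, 7 rose and 2 fell (13.2% and 13.4% of all genes), and without that of clone 7, 9 rose and 2 fell (18.9% and 14.5% of all genes). SEMA3A, SEMA3C, SEMA5A, SEMA6B, PLXNA3 and PLXNB1 kept their calls in G1 under every alternative that gave a value.

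Within S, with 1 day 28 library and 2 day 0 libraries, 3 of the 22 genes rose (SEMA5A 5.06 ± 0.66, adjusted p = 0.0259; PLXNB1 2.1 ± 0.38, adjusted p = 0.0334; PLXNA3 1.71 ± 0.38, adjusted p = 0.0440) and none fell, whereas 4.37% of all genes were called higher and 2.90% lower. Unadjusted p-values were under 0.05 for 8 of the 22. The lone day 28 S library is assumed here to vary like the other groups. No gene of the 22 passed without the day 28 G1 library of either clone or without the day 0 S library of clone 7, and 5 rose without the day 0 G1 library of clone 1 or of clone 7, where 9.17% or 8.90% of all genes did. With clone as a block 4 rose, where 9.11% of all genes did. Within G2, with 1 library a day, there is no test. There, PLXNB3 differed by 6.47 (4 reads at day 0), SEMA5A by 4.29, SEMA3F by 3.32, SEMA6C by 3.31 and SEMA3B by 2.85, whereas 21.8% of all genes were higher by at least 1.

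**Figure D5:**
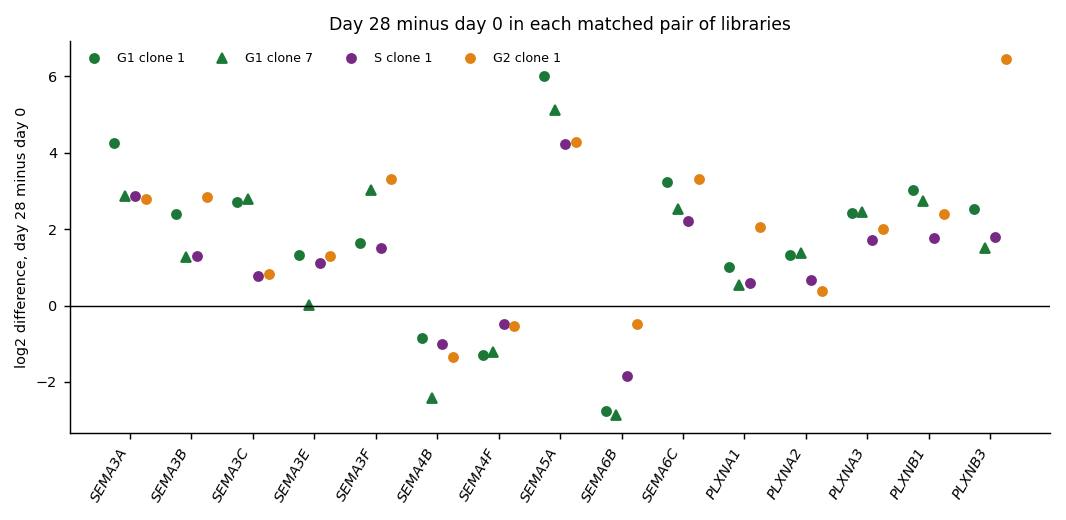
Day 28 minus day 0 (log2) in each of the 4 pairs of libraries matched for phase and clone, for the 15 genes that passed the test. All 12 genes that rose have 4 points above 0, with SEMA3E in G1 of clone 7 close to 0, and all 3 that fell have 4 points below 0.

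The phases were also compared on each day. At day 28, S and G2 cells had less SEMA3C than G1 cells (11.03 and 10.37, against 13.17 and 13.71; -2.74 ± 0.32, adjusted p = 0.00649), the only 1 of the 22 genes called, whereas 1.85% of all genes were lower and 2.90% higher. The SEMA3C call was lost without the day 28 G1 library of clone 7 (-2.47, adjusted p = 0.0880). With clone as a block 2 of the 22 genes were lower (2.53% of all genes), and under limma-voom 4 were (7.30% of all genes). At day 0, S cells did not differ from G1 cells in any of the 22 genes by limma at the adjusted threshold, and none of the 22 had an unadjusted p under 0.05 (443 of all genes did, with 0 called, and 0 under limma-voom). The differences at day 0 ran from -0.83 for SEMA5A to 0.44 for PLXNA1. The difference between cycling cells (S and G2) and G1 cells in the change with day passed for no gene of the table by limma or limma-voom, although 1382 had an unadjusted p under 0.05. It passed for 49 genes in the higher and 7 in the lower direction without the day 28 G1 library of clone 1, and for 82 and 70 in clone 1 alone, none of them among the 22. The guidance genes with an unadjusted p under 0.05 there were SEMA3C (-1.91, adjusted p = 0.243) and SEMA6B (1.75, adjusted p = 0.440). SEMA3C stood 2.70 and 2.78 higher at day 28 in the G1 pairs, 0.78 in S and 0.81 in G2.

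Between clones, with day and phase in the fit, clone 7 had more NRP2 than clone 1 (1.52 ± 0.28, adjusted p = 0.0452), the only 1 of the 22 genes called, whereas 0.387% of all genes were called higher and 0.226% lower. NRP2 was at 11.62, 12.39 and 11.86 in the 3 clone 7 libraries and at 9.30 to 10.65 in the 6 clone 1 libraries, with no overlap. The adjusted p was 0.0650 to 0.466 when any 1 library was left out other than the G1 libraries of clone 7, with the change at 1.29 to 1.71.

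The other 9 genes (PLXNA4, PLXNC1, SEMA3D, SEMA3G, SEMA4A, SEMA4G, SEMA5B, SEMA6A and SEMA6D) fell under the abundance filter. SEMA3D, a class 3 ligand, had 247, 277, 138 and 232 reads in the day 28 libraries, against 24, 4, 9, 5 and 26 in the day 0 libraries. SEMA4A, a membrane ligand with roles in immune cells, had 140, 224, 74 and 136 reads at day 28, against 61, 2, 14, 13 and 9 at day 0. Scaled to depth, both were higher in every day 28 library than in any day 0 library. Without the filter SEMA3D changed by 3.88 (adjusted p = 1.20e-04) and SEMA4A by 3.14 (adjusted p = 0.00102).

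PLXNC1, the SEMA7A receptor, and PLXNA4, a type A plexin, would also pass without the filter (3.3 and 3.1, adjusted p = 0.00717 and 0.00919), as would SEMA6A (2.22, adjusted p = 0.0370). Their highest levels, all in the day 28 G2 library, were 0.0388, 0.0401 and 0.0350 reads per kb per M, and that library also had the highest olfactory receptor level, 0.0239. SEMA4G had 93 reads in the day 28 G2 library and 0 to 2 in each of the others. SEMA3G had 0 to 12 reads, SEMA5B 3 to 115 and SEMA6D 0 to 3 in any library.

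Of 61 other genes of the pathway (co-receptors, processing proteases, small GTPases and their regulators), 43 were tested, 14 rose and 14 fell (32.6% each), near the 28.6% and 26.6% of all genes, with a median change of 0.23. MMP14, a membrane protease that can shed SEMA4D, rose by 2.41 ± 0.45 (adjusted p = 0.00108), and FURIN, the convertase that processes class 3 semaphorins, fell by 1.73 on the log2 scale (SE 0.26, adjusted p = 3.25e-04). MICAL3, of the plexin-associated MICAL oxidases (1.90 ± 0.26), and the small GTP-binding protein RND3 (1.49 ± 0.25) rose. RHOA (-1.55 ± 0.25), the actin-severing protein CFL1 (-1.61 ± 0.21), the plexin substrate RAP1B (-1.52 ± 0.28) and the neuropilin ligand VEGFC (-1.72 ± 0.59, adjusted p = 0.0268) fell. Span length differed between the directions here too, with a median of 134.4 kb among the 14 that rose and 13.0 kb among the 14 that fell.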

How the data were processed

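The deposited file holds log2 values for 80037 transcripts. Alignment used HISAT2 2.1.0 and the GRCh38 build, per the submitters' processing notes, which also name DESeq2; the counter and scaling are not given in the sources used here. In the deposited log2 values, each library's entries were whole reads times 1 factor, with 0.9 reads entered for none (100% of values up to 1000 reads were within 0.05 of a whole number). GENCODE v29 names 65954 of them, and 90.6% of those lie exactly on the annotated coding span; the rows of SEMA3E and SEMA4F did not, and that of SEMA5A was not named there. Of genes inside another gene, 0 of 112 on the same strand and 41 of 122 on the opposite strand held more reads than their host (day 0 G1 of clone 1, at least 50 reads), so strands were kept apart.

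The row kept for each gene was tested on log2(linear value + 1) with limma 3.58.1 (R 4.3.3; lmFit, eBayes with trend) where its mean reached 7.01, the level of 10 reads in the shallowest library, and p-values were Benjamini-Hochberg adjusted over 12391 genes. Comparisons within a phase or day used 6 group means that share 1 spread. Limma-voom on the recovered reads was an alternative, beside scalings, filters, pseudocounts, narrower spans, span trend and background removed, clone 1 alone, clone as a block, and each library left out. Scripts were tested on simulated data. Samples were paired by clone number. How the clones deviated was shared mainly within day 0, where G1 correlated with S at 0.653. Across the days little was shared: against G1 cells of day 28, untreated cells gave 0.296 (S) and 0.115 (G1).

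RefSeq promoters matched 27 of the 31 genes. Genes that passed the test with a change of at least 1 are given with every library. NRP1 and NRP2, which did not pass, are given so too, as are the reads of SEMA3D and SEMA4A, which were under the filter. Of the pathway list, the 8 largest called changes are named. The guidance genes, the pathway list and the markers were chosen with earlier results of these data known, and the split along genes and its examples were chosen after the values were seen.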

Additional observations from a re-analysis of the deposited data

Results flagged for a closer look

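PLXND1 in the day 0 G2 library of clone 1, at 10.54 (log2), lay far below the other day 0 libraries, the nearest of which was at 11.45. Without that library PLXND1 was called lower at day 28 (-0.76, adjusted p = 0.0302 by limma). SEMA4D in the day 28 S library of clone 1, at 11.79, lay above the other day 28 libraries, the nearest of which was at 11.27. These were 2 of 44 groups of 4 or 5 libraries checked, and chance gives about 1 in 20. The cause was not tested.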

How the results depend on the processing

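For day 28 against day 0, the number of guidance genes higher stayed within 10 to 17 (12 as reported) and the number lower within 2 to 4 (3 as reported) over all alternatives, and 11 of the 15 calls (SEMA3A, SEMA3B, SEMA3C, SEMA3F, SEMA4B, SEMA5A, SEMA6B, SEMA6C, PLXNA3, PLXNB1 and PLXNB3) kept their direction and side of the threshold wherever they could be fitted. The changes of NRP1 that turned sign were -0.24 on narrower spans, -0.059 with quantile scaling, -0.027 with background subtracted, -0.71 with the span trend removed, -0.12 without the day 0 and -0.20 without the day 28 G1 library of clone 1 (0.29 at most with any library left out), and that of SEMA3E was -0.17 with the span trend removed. On narrower spans 1 gene was lower in G1 (4 as reported), 1 lower in S (0 as reported), 0 lower in S and G2 at day 28 (1 as reported) and 0 higher in clone 7 (1 as reported). In S, 7 genes were higher with no filter and 5 with a filter of 1 read per M in 4 libraries (3 as reported). At day 28, 4 genes were lower in S and G2 under limma-voom and 2 with clone as a replicate block, which for day 28 against day 0 gained PLXND1 and left the other calls as they were, and in S gave 4 genes higher (3 as reported) and 1129 of the table (542 as reported). With each library left out, genes higher in G1 ranged from 5 to 10 and lower from 1 to 4, genes higher in S from 0 to 5, genes lower in S and G2 at day 28 from 0 to 1, and genes higher in clone 7 from 0 to 1. Limma-voom shifted the median of all genes by 0.26 to 0.28, and quantile scaling moved it to -0.11. In S, 542 genes of the table were higher as reported, against 0 without the day 0 S library of clone 7. Depth limits SEMA3A (6 reads), SEMA6C (14) and PLXNB3 (19) in the shallowest library. The cause of these differences was not tested.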
